A study of Arabidopsis thaliana with 18 samples.

Results

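The genes encoded in the mitochondrion and in the plastid were followed in sorted Arabidopsis root hair cells that gain or lose the trihelix transcription factors GTL1 and DF1. Members were the ATH1 probe sets that the platform annotation gives to 1 gene only, where that gene lies on the mitochondrial or the plastid genome. They stood for 85 of the 13356 genes with such a probe set, and were 92 of 22746 probe sets in all, made up of 23 mitochondrial probe sets for 16 genes and 69 plastid probe sets for 69 genes. Among the mitochondrial genes nad1 had 7 probe sets and nad5 had 2. A further 20 probe sets that the annotation gives to several genes, at least 1 of them of an organelle, were not members.

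Each of the 6 genotypes had 3 arrays of total RNA. In GTL1ox and DF1ox the fusion GTL1-GFP or DF1-GFP was driven by the root hair promoter pEXPA7, and the fusion was itself the signal used for sorting. The mutants gtl1 (gtl1-1), df1 (df1-1) and gtl1df1 (gtl1-1df1-1) and the wild type (WT) carried pEXPA7:NLS-GFP instead, so the sorted marker differed between the overexpressors and the other genotypes. All lines were in the Columbia-0 background, and roots of seedlings grown for 5 days were turned into protoplasts and sorted for GFP. The labels speak of protoplasts in the extraction protocol and of nuclei in the design text, and which of the 2 gave the RNA was not settled by them. The study's methods name protoplasts as what was sorted.

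Plant mitochondrial DNA keeps a small set of genes, mainly subunits of the respiratory chain and factors that attach haem to cytochrome c. Plastid DNA encodes core subunits of the photosystems, the cytochrome b6f complex, the ATP synthase and the NDH complex, together with ribosomal proteins and the plastid's own RNA polymerase. Root plastids hold this genome without carrying out much photosynthesis, and many plastid genes are transcribed in clusters of neighbours. Nearly all other proteins of both organelles are made from nuclear genes.

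The arrays fell into 2 sets by the level of the spiked-in control BioB, a split read from the data that the labels do not name. It lay at 7.29 to 8.32 on the log2 scale in gtl1, df1 and gtl1df1 and at 2.61 to 3.20 in GTL1ox, DF1ox and WT. Every comparison of a mutant with WT, and of an overexpressor with gtl1df1, therefore crosses these BioB sets, and set and genotype cannot be told apart there. Comparisons of GTL1ox or DF1ox with WT, of GTL1ox with DF1ox and of gtl1df1 with either single mutant stay within a set. DF1 itself (AT1G76880) followed the labels, with 4.83 to 5.53 in GTL1ox, 14.09 to 14.30 in DF1ox, 8.38 to 8.83 in gtl1, 3.30 to 3.74 in df1, 3.41 to 5.03 in gtl1df1 and 7.23 to 7.57 in WT. GTL1 was not analysed here, since the annotation used names no probe set with it. The root hair gene EXPA7, whose promoter marks these cells, lay between 12.78 and 13.34 in all 18 arrays. In RNA of pooled cells, fewer cells of a type and less RNA per cell cannot be told apart.

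Organelle transcripts were measured over a wide range. The deposited values are log2 levels after gcRMA normalization, and their lowest value is 2.22. A probe set within 1 log2 unit of that value is called near the lowest value here, and a difference whose dimmer group lies there on every array is given as "at least". Of the mitochondrial members 5 of 23 were near the lowest value on all arrays and 11 of 23 lay above it on all arrays, with a median level of 4.09. Of the plastid members 14 of 69 were near it on all arrays and 44 of 69 were above it on all arrays, with a median level of 5.45. Probes bind with different strength, so the level of a probe set says nothing certain about the amount of its RNA beside that of another. Among the members with the highest readings, mitochondrial ones included ccmFN1 (cytochrome c maturation), whose 18 arrays lay at 9.95 to 11.81, and nad4 (a complex I subunit), at 9.37 to 10.36. The plastid ones included atpE and atpB (subunits of the ATP synthase head) and clpP (a protease subunit), with means over the genotypes of 12.03, 10.89 and 10.40. Of the 4 measured nuclear photosynthesis genes 3 were near the lowest value on all arrays and ATPC1 (an ATP synthase subunit) lay at 3.28 to 3.88, while the nuclear respiration genes CYTC-1 and CYTC-2, which encode cytochrome c, were bright in every genotype.

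**Figure D1:**
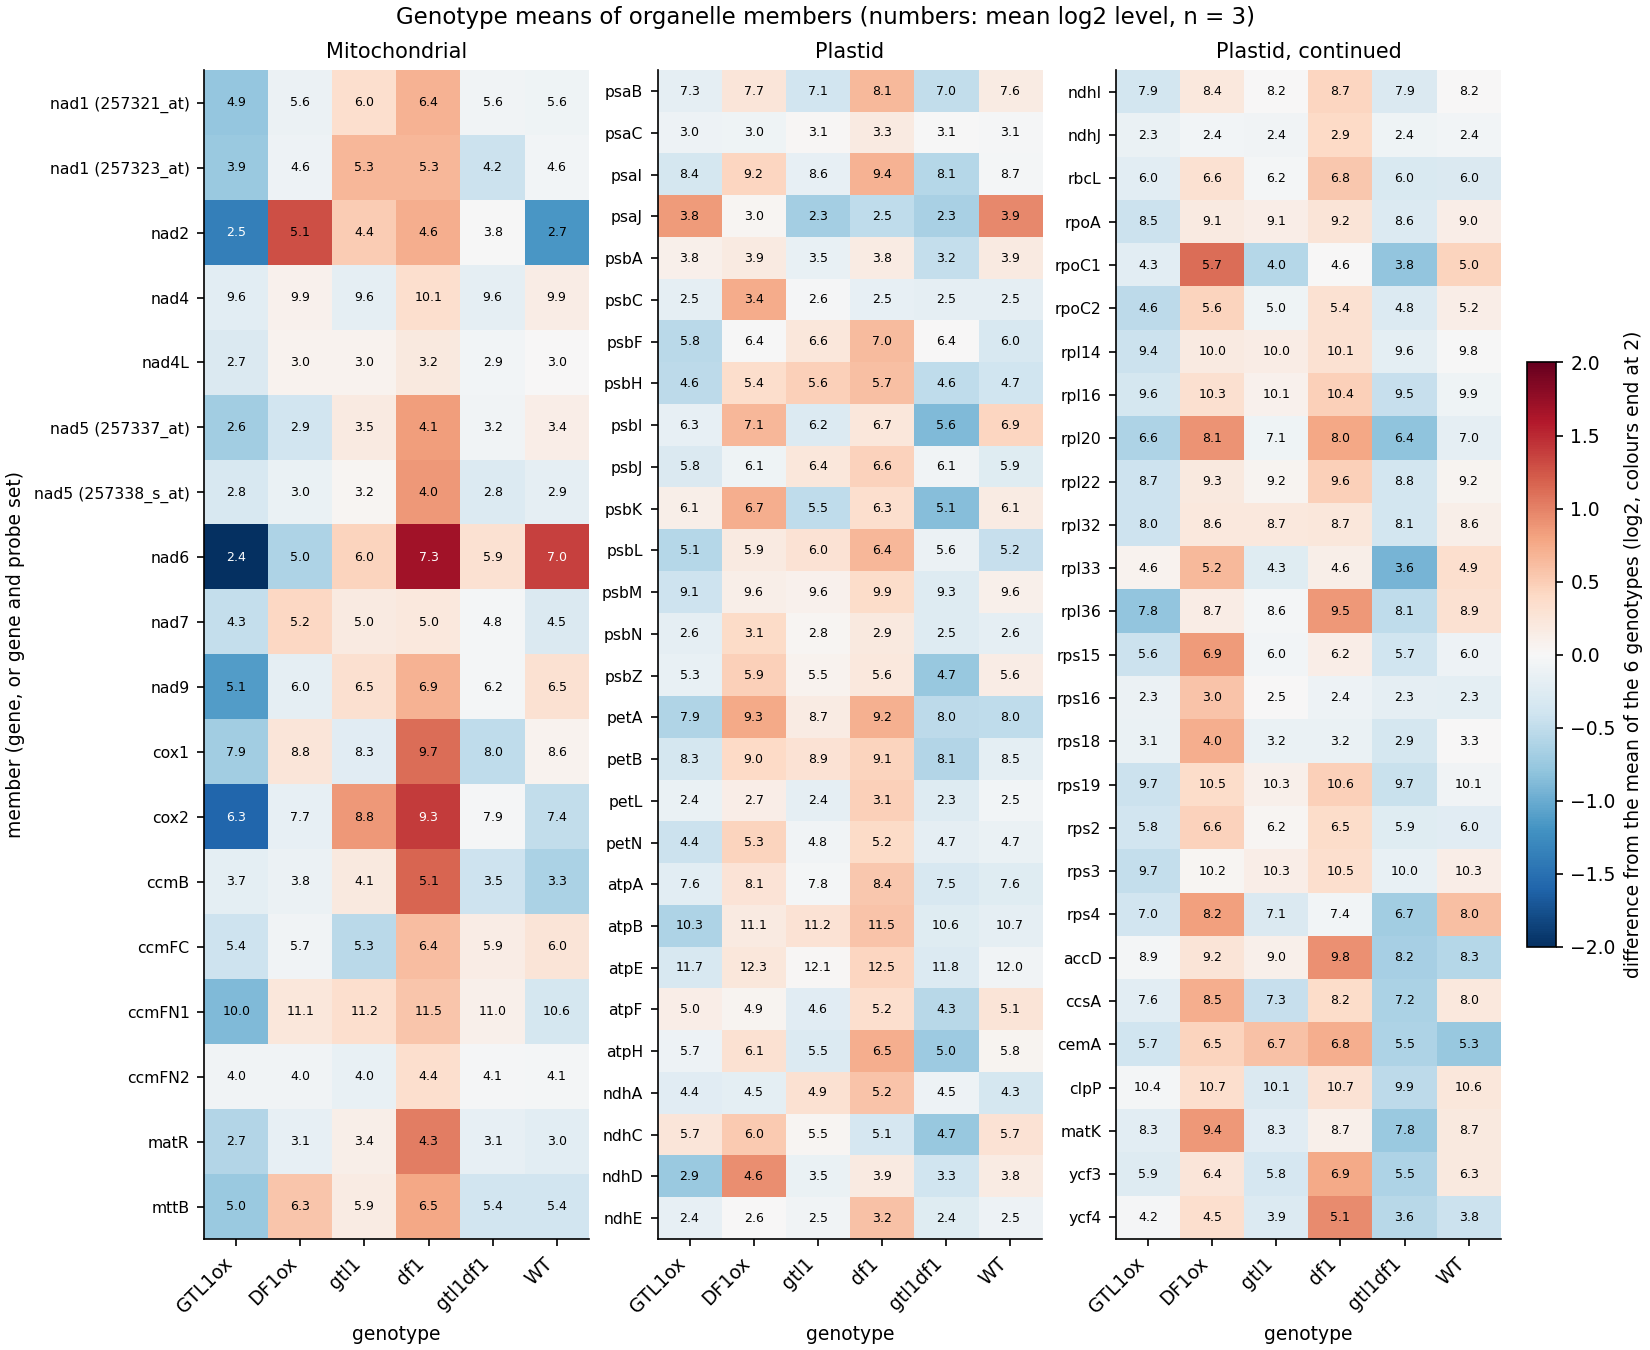
Genotype means of the members not near the lowest value on all arrays, with mitochondrial members on the left and plastid members in the other panels. Numbers are mean log2 levels of 3 arrays, and colours give the difference from the mean over the 6 genotypes (log2). The df1 column holds the highest mean for 16 mitochondrial and 32 plastid members, DF1ox for 2 and 22.

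Among the members not near the lowest value on all arrays, the order of genotypes differed between the organelles. For mitochondrial members the highest genotype mean was in df1 for 16 and in DF1ox for 2, and the lowest mean was in GTL1ox for 15. For plastid members the highest mean was in df1 for 32, in DF1ox for 22 and in WT for 1, and the lowest was in gtl1df1 for 28 and in GTL1ox for 23. The 2 organelles therefore shared df1 at the top and differed at the bottom.

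The mean over the 23 mitochondrial probe sets was 4.21 ± 0.01 in GTL1ox, 4.87 ± 0.15 in DF1ox, 4.98 ± 0.17 in gtl1, 5.46 ± 0.14 in df1, 4.74 ± 0.07 in gtl1df1 and 4.77 ± 0.30 in WT (log2, SD, n = 3 arrays each). The 3 GTL1ox arrays lay below every other array, and the 3 df1 arrays above every other array. The mean over the 69 plastid probe sets was 5.42 ± 0.15 in GTL1ox, 5.95 ± 0.20 in DF1ox, 5.61 ± 0.30 in gtl1, 5.96 ± 0.18 in df1, 5.29 ± 0.10 in gtl1df1 and 5.62 ± 0.26 in WT. Plastid means of df1 and DF1ox overlapped, and those of WT overlapped with both overexpressors and both single mutants. WT replicate 1 stood above the other 2 WT arrays in both organelles, at 5.11 for mitochondrial and 5.90 for plastid members.

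Measures of RNA quality and labelling moved in part with these means. The 3' minus 5' difference of the control transcripts was 1.79 in GTL1ox, 1.96 in DF1ox, 2.04 in gtl1, 2.21 in df1, 2.08 in gtl1df1 and 1.99 in WT (log2 means), so that GTL1ox was lowest and df1 highest there too. The 5S ribosomal RNA probe set was at 3.78 in GTL1ox, 4.16 in DF1ox, 4.80 in gtl1, 5.71 in df1, 3.84 in gtl1df1 and 4.16 in WT. The part of these measures in the organelle values was not tested.

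**Figure D2:**
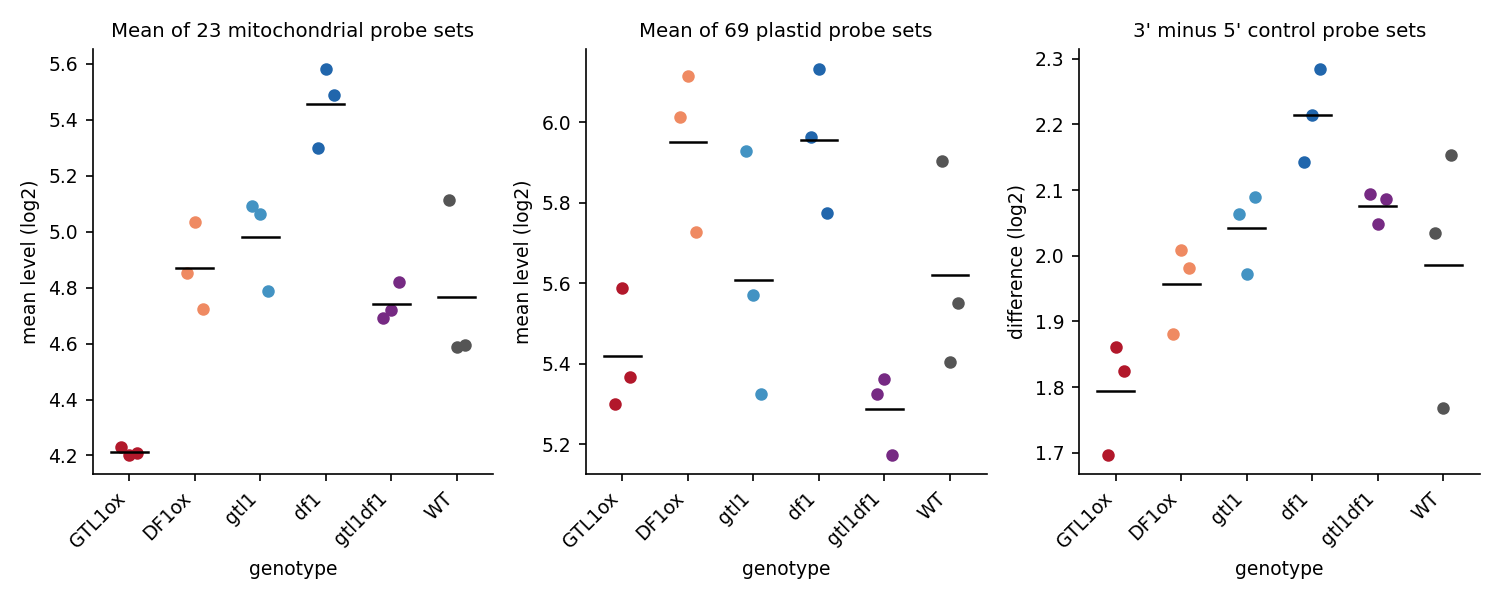
Array means over the mitochondrial members, over the plastid members, and the 3' minus 5' difference of control probe sets (log2), each point an array and each line the mean of 3 arrays of a genotype. GTL1ox arrays lie at 4.20 to 4.23 and df1 arrays at 5.30 to 5.58 in the mitochondrial panel, and the df1 and GTL1ox means are also the highest and lowest in the 3' minus 5' panel.

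For the mitochondrial genes GTL1ox was first set against WT, a comparison within a BioB set. The sorted marker differed, and DF1 lay at 4.83 to 5.53 in GTL1ox, against 7.23 to 7.57 in WT. The 3' minus 5' difference averaged 1.79 in GTL1ox and 1.99 in WT, with overlapping arrays. The part of these in the organelle differences was not tested, so the differences cannot be given to GTL1 alone. The complex I subunit nad6 was near the lowest value in GTL1ox and bright in WT, and nad9, cox2 and nad5 were lower as well. Of the 23 mitochondrial members 4 were called lower and 0 higher by limma at an adjusted p under 0.05, while 24.5% of all probe sets were called, 9.65% lower and 14.9% higher. The median difference of the mitochondrial members was -0.36 on the log2 scale, against 0 over all probe sets. Arrays of nad6 gave 2.45, 2.33 and 2.51 in GTL1ox, against 8.24, 5.58 and 7.07 in WT. All GTL1ox arrays were near the lowest value and all WT arrays above it, a difference of -4.53 ± 0.67 (SE) or at least 23.1-fold (adjusted p = 0.000208). This probe set may match more than 1 transcript by its name ending, s_at, as may those of matR, ccmFC, mttB and the second nad5 probe set.

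cox2 encodes a core subunit of complex IV, the last enzyme of the respiratory chain. It read 6.02, 6.31 and 6.67 in GTL1ox, against 7.86, 7.17 and 7.20 in WT, with no overlap (difference -1.08 ± 0.24, adjusted p = 0.00465). nad9, another complex I subunit, read 4.47, 5.27 and 5.50 in GTL1ox, against 7.12, 6.06 and 6.33 in WT (difference -1.42 ± 0.35, adjusted p = 0.00911). The 2 probe sets of nad5 did not give the same call, since 257337_at was called, with a difference of -0.82 (near the lowest value in GTL1ox, adjusted p = 0.0389), and 257338_s_at was not. The adjusted p of nad9 was 0.123 in a fit of these 6 arrays alone.

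Plastid members moved less in GTL1ox. Only rps4 (a ribosomal protein, -0.99, adjusted p = 0.044) and ndhD (an NDH subunit, near the lowest value in GTL1ox, -0.90, adjusted p = 0.0331) were called, both lower, so that 2 of 69 stood against the 9.65% of all probe sets called lower. Without any 1 of the 6 arrays this count was 0 or 1: it was 0 without WT replicate 1 or 3 or GTL1ox replicate 1 or 3, and 1 without WT replicate 2 or GTL1ox replicate 2. The median plastid difference was -0.12.

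DF1ox, set against WT within a BioB set but with another sorted marker, gave another picture. The spiked-in control BioC lay at 7.92 to 8.26 in DF1ox, against 7.07 to 7.40 in WT. BioB lay at 2.95 to 3.20, against 2.61 to 2.74, and the part of these measures was not tested. In DF1ox against WT 1 mitochondrial member, nad2, was called higher and 0 lower, and 8 plastid members were called higher and 0 lower, against 8.04% of all probe sets called, 3.86% higher and 4.18% lower. nad2, a complex I subunit, read 4.78, 5.12 and 5.54 in DF1ox, against 3.14, 2.50 and 2.47 in WT. Every WT array was near the lowest value, so the difference of 2.45 ± 0.36 is at least 5.45-fold (adjusted p = 0.00152, and 0.0748 in a fit of these 6 arrays alone). nad6 was not called here, with 4.72, 5.77 and 4.48 in DF1ox, against 8.24, 5.58 and 7.07 in WT, where the arrays overlapped.

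The plastid members called higher in DF1ox were 4 of 15 ribosomal proteins (rpl20, rps15, rps16 and rps18), 2 of 6 cytochrome b6f subunits (petA and petD), the NDH subunit ndhG and the photosystem II subunit psbC. Of these 8, petD (2.22 to 2.58) and ndhG (2.22 to 2.89) were near the lowest value on all 18 arrays, so that no level above it was measured in either genotype. psbC and rps16 were near it on every WT array, so that their differences are at least 1.89-fold and at least 1.70-fold. petA encodes cytochrome f. It read 9.07, 9.56 and 9.27 in DF1ox, against 8.75, 7.90 and 7.42 in WT, with no overlap (difference 1.27 ± 0.29, adjusted p = 0.0169). rps15 read 6.74, 6.78 and 7.25 in DF1ox, against 6.04, 5.93 and 5.93 in WT (difference 0.96 ± 0.21, adjusted p = 0.0145). rpl20 was called too, but WT replicate 1 at 7.83 overlapped the DF1ox arrays at 8.00, 8.48 and 7.77. The count of 8 dropped to 4 without WT replicate 2, 2 without WT replicate 3, and 4, 3 and 5 without DF1ox replicates 1, 2 and 3, and that of mitochondrial members was 2 without WT replicate 2 or DF1ox replicate 1. petA lost its call without WT replicate 3 or DF1ox replicate 2, and rps15 without DF1ox replicate 3. A fit of the 6 arrays alone called 0 of either organelle.

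**Figure D3:**
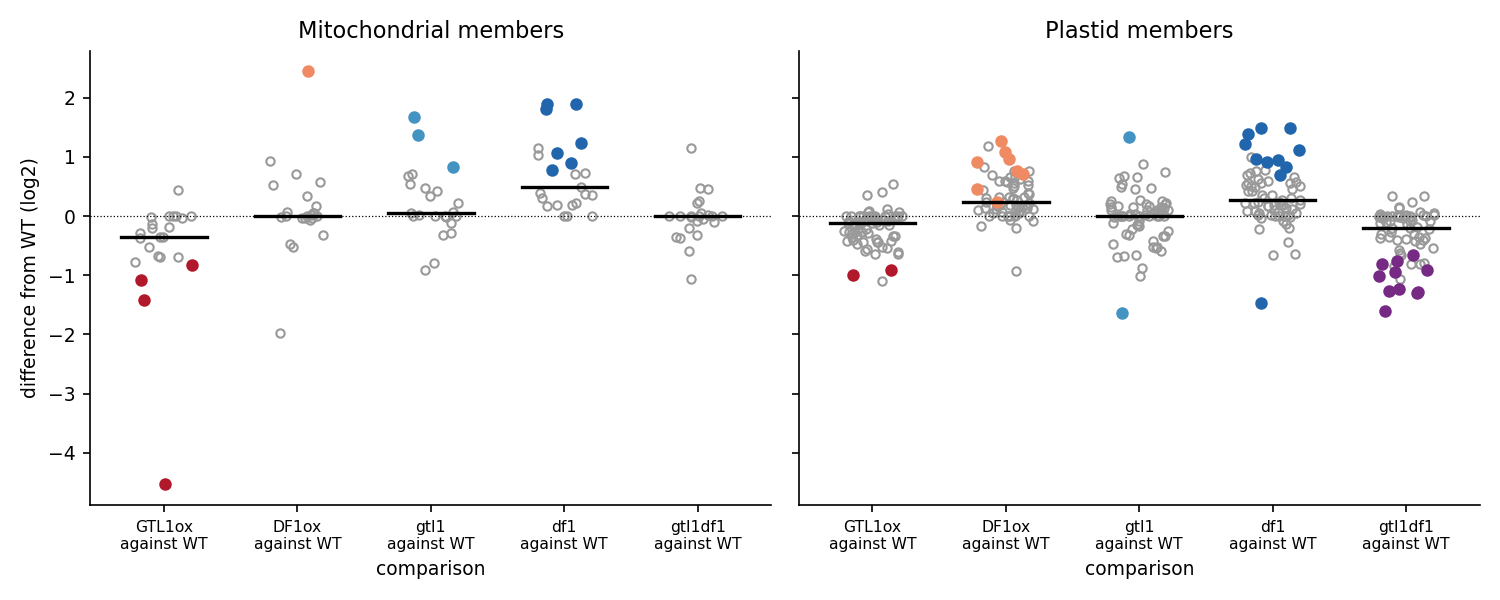
Log2 differences of every member from WT in the 5 other genotypes, mitochondrial members on the left and plastid members on the right. Filled points are members called by limma (adjusted p under 0.05), open points those not called, and lines the median over all members, which is -0.36 for mitochondrial members in GTL1ox and 0.50 in df1.

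The 2 overexpressors were then set against each other, within a BioB set and with the same kind of sorted marker. Control measures still differed, without overlap. BioC lay at 6.91 to 7.01 in GTL1ox, against 7.92 to 8.26 in DF1ox, and BioB at 2.65 to 2.75, against 2.95 to 3.20. The 3' minus 5' difference lay at 1.70 to 1.86 in GTL1ox, against 1.88 to 2.01 in DF1ox. The part of these measures in the organelle differences was not tested. In GTL1ox against DF1ox 5 of 23 mitochondrial and 18 of 69 plastid members were called lower and 0 higher, against 20.5% of all probe sets called, 7.42% lower and 13.1% higher. The medians were -0.36 and -0.54. The mitochondrial members were nad2, nad6, cox2, ccmFN1 and nad7. nad2 read 2.55, 2.45 and 2.49 in GTL1ox, against 4.78, 5.12 and 5.54 in DF1ox, a difference of at least 6.27-fold (adjusted p = 0.000178). nad6 lost its call when DF1ox replicate 2 was left out (adjusted p = 0.0683).

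The plastid members lower in GTL1ox than in DF1ox included 3 of 4 subunits of the plastid RNA polymerase, 6 of 15 ribosomal proteins and 3 of 6 cytochrome b6f subunits. Among them rpoB (2.41 to 2.87), petD and ndhG were near the lowest value on all 18 arrays, and the arrays of rpoB and petD overlapped. psbC, rps16 and rps18, also called, were near it on every GTL1ox array. rpoC1, a catalytic subunit of the polymerase, read 4.27, 4.81 and 3.97 in GTL1ox, against 5.85, 6.13 and 5.03 in DF1ox, with no overlap (difference -1.32 ± 0.32, adjusted p = 0.0103). rpl20 read 6.30, 6.81 and 6.61 in GTL1ox, against 8.00, 8.48 and 7.77 in DF1ox (difference -1.51 ± 0.30, adjusted p = 0.00238). ndhD was near the lowest value in GTL1ox, at 2.85, 2.93 and 3.06, against 4.29, 5.38 and 4.16 in DF1ox (at least 3.17-fold, adjusted p = 0.000874). The plastid count was 10 without GTL1ox replicate 1 or 3, 10 and 9 without DF1ox replicates 1 and 2, and 6 in a fit of the 6 arrays alone.

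In df1, where DF1 alone is lost, mitochondrial signal was higher than in WT. Like the other comparisons of a mutant with WT, this one crosses the BioB sets. The 3' minus 5' difference averaged 2.21 in df1 and 1.99 in WT, and the 5S ribosomal RNA probe set 5.71 and 4.16. The part of these measures in the organelle differences was not tested. In df1 against WT 7 of 23 mitochondrial members were called higher and 0 lower, against 17.6% of all probe sets called, 7.54% higher and 10% lower, and the median difference was 0.50. They were cox2, nad2, ccmB, matR, ccmFN1, nad5 (257338_s_at) and nad1 (257321_at). cox2 read 9.10, 9.41 and 9.40 in df1, against 7.86, 7.17 and 7.20 in WT, with no overlap (difference 1.89 ± 0.24, 3.72-fold, adjusted p = 0.000337). ccmB, a subunit of the haem exporter used in cytochrome c maturation, read 4.96, 5.17 and 5.05 in df1, against 3.37, 3.31 and 3.10 in WT (difference 1.80 ± 0.19, adjusted p = 0.000105). matR, a maturase-related protein of group II introns, was at 4.23, 5.09 and 3.52 in df1 and near the lowest value in WT. nad2 and nad5 (257338_s_at) were near the lowest value on every WT array too. The other nad5 probe set, 257337_at, and nad1 (257323_at) were not called. The count dropped to 4 without df1 replicate 2 and was 1 in a fit of the 6 arrays alone.

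In the same comparison 10 of 69 plastid members were called higher and 1 lower. The higher ones included accD (a subunit of the acetyl-CoA carboxylase of fatty acid synthesis, 1.50), cemA (an envelope membrane protein, 1.49), ycf4 (a photosystem I assembly factor, 1.39), petA (1.22) and rbcL (the large subunit of Rubisco, 0.83). cemA read 6.62, 6.96 and 6.90 in df1, against 6.30, 4.44 and 5.30 in WT, with WT spread over nearly 2 log2 units (adjusted p = 0.0201). The 11 plastid calls dropped to 5 without WT replicate 2, 3 without WT replicate 3 and 1 without df1 replicate 2, and a fit of the 6 arrays alone called 1. accD and cemA each lost their call without WT replicate 2 or 3 or df1 replicate 2 or 3.

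Fewer members were called in gtl1, where GTL1 alone is lost. In gtl1 against WT 3 of 23 mitochondrial members were called higher and 0 lower, and 1 of 69 plastid members was called higher and 1 lower, against 11.8% of all probe sets called, 5.24% higher and 6.54% lower. The mitochondrial members were nad2 (at least 3.19-fold, adjusted p = 0.0107), cox2 (1.37 ± 0.24, adjusted p = 0.00343) and ccmB (0.83, adjusted p = 0.0135). cox2 read 8.44, 9.13 and 8.76 in gtl1, against 7.86, 7.17 and 7.20 in WT. cemA was the plastid member called higher, with overlapping arrays. The 2 plastid calls were 1 without WT replicate 2 or gtl1 replicate 2, 0 without WT replicate 3 and 4 without gtl1 replicate 1, and a fit of the 6 arrays alone called 0 members of either organelle.

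psaJ, a small photosystem I subunit, was the plastid member called lower in each of the 3 mutants, with at least 3.11-fold in gtl1, 2.77-fold in df1 and 3.04-fold in gtl1df1 against WT. Its arrays lay at 2.26 to 2.47 in all 9 mutant arrays, against 4.53, 3.22 and 4.07 in WT. In the overexpressors it read 3.04, 4.62 and 3.84 in GTL1ox and 3.53, 3.20 and 2.32 in DF1ox. The split between mutants and the other genotypes is also the split between the BioB sets. Its call against WT was lost without WT replicate 1 in all 3 mutants, without WT replicate 3 in gtl1 and df1, and without any 1 df1 array in df1.

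In gtl1df1, where both factors are lost, the mitochondrial signal was not raised. Against WT limma called 0 of 23 mitochondrial members, with 1 at an unadjusted p under 0.05, and the median difference was 0. The count was 1 without WT replicate 1 or gtl1df1 replicate 2. Plastid members were called lower in 11 of 69 cases and higher in 0, against 14.7% of all probe sets called, 7.92% lower and 6.77% higher. They were psaJ, psbI, psbK, psbA and psbZ (photosystem subunits), rps4 and rpl33 (ribosomal proteins), rpoC1, matK (a splicing maturase), atpF (an ATP synthase stator subunit) and clpP.

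psbI, a small subunit of photosystem II, read 5.79, 5.23 and 5.65 in gtl1df1, against 7.10, 6.52 and 6.95 in WT, with no overlap (difference -1.30 ± 0.30, adjusted p = 0.00966). rpl33 read 3.86, 3.64 and 3.26 in gtl1df1, against 5.27, 4.54 and 4.74 in WT (difference -1.27, adjusted p = 0.0153). The 11 calls dropped to 3 without WT replicate 1, 7 without WT replicate 3, 6 without gtl1df1 replicate 1 and 3 without gtl1df1 replicate 3, and a fit of the 6 arrays alone called 1.

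The comparison of gtl1df1 with df1 asks what losing GTL1 does where DF1 is already lost, and it lies within a BioB set. Members of both organelles were lower in gtl1df1. Of the mitochondrial members 7 of 23 and of the plastid members 22 of 69 were called lower and 0 higher, against 17.4% of all probe sets called, 8.23% lower and 9.22% higher, with medians of -0.74 and -0.63. With the replicate number as a block, which here is assumed to pair the arrays, 8 and 24 were called lower. In a fit of these 6 arrays alone 3 and 16 were called, or 3 and 8 with the block. The mitochondrial count was 4 without df1 replicate 2 or gtl1df1 replicate 1 or 2, and the plastid count was 10 without df1 replicate 2, 12 without gtl1df1 replicate 1 and 10 without gtl1df1 replicate 3. Control measures were lower in gtl1df1 too, without overlap. BioB lay at 7.29 to 7.61 in gtl1df1, against 8.14 to 8.32 in df1, and the spiked-in BioC at 8.86 to 9.26 in gtl1df1, against 9.80 to 9.96 in df1. The 3' minus 5' difference averaged 2.08 in gtl1df1 and 2.21 in df1, and the 5S ribosomal RNA probe set 3.84 in gtl1df1 and 5.71 in df1. The part of these measures in the organelle differences was not tested.

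cox1 and cox2, the 2 complex IV members, were both called. cox1 read 7.76, 8.16 and 8.23 in gtl1df1, against 9.53, 9.77 and 9.71 in df1 (difference -1.62 ± 0.38, adjusted p = 0.00932). cox2 read 7.78, 8.04 and 7.82 in gtl1df1, against 9.10, 9.41 and 9.40 in df1 (difference -1.42 ± 0.24, adjusted p = 0.0012). ccmB read 3.69, 3.62 and 3.10 in gtl1df1, against 4.96, 5.17 and 5.05 in df1 (difference -1.59 ± 0.19, adjusted p = 0.000108). The arrays of the 2 genotypes did not overlap for any of these 3 genes. Of the 15 complex I probe sets 3 were called.

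**Figure D4:**
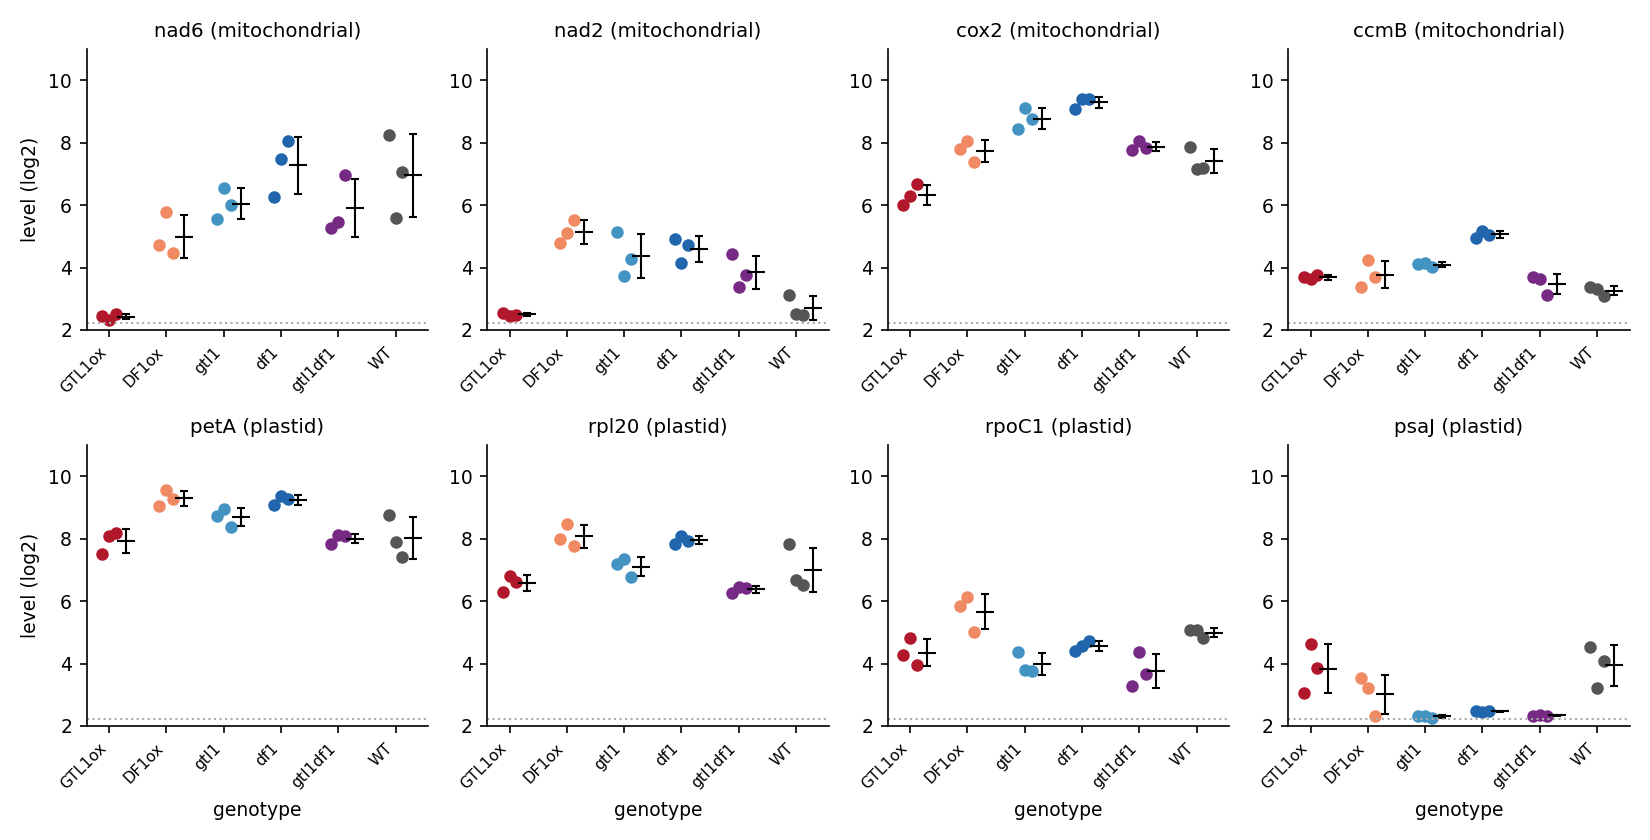
Log2 levels by array of 4 mitochondrial members (upper row) and 4 plastid members (lower row), each point an array, with the mean and SD of 3 arrays beside it; the dotted line is the lowest value, 2.22. nad6 is near the lowest value in GTL1ox, cox2 is highest in df1 (9.10 to 9.41), and psaJ is near the lowest value in the 3 mutants.

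The plastid members lower in gtl1df1 than in df1 were 5 of 15 photosystem II subunits, 3 of 6 ATP synthase subunits, 2 of 15 ribosomal proteins and 6 of the 7 genes outside these complexes (accD, ccsA, cemA, clpP, matK, ycf3 and ycf4), beside 2 each of photosystem I and cytochrome b6f, ndhE and rbcL. A run of 5 immediate neighbours on the plastid genome in RefSeq's gene table, accD, psaI, ycf4, cemA and petA, was picked out after its values were seen. All 5 were called lower, with differences from -1.58 to -1.24, and their median was -1.35. In df1 against WT 4 of these 5 were called higher and their median difference was 1.39. That comparison uses the same df1 arrays, so it is not a separate observation of the run. accD read 8.07, 8.55 and 8.12 in gtl1df1, against 9.49, 10.10 and 9.87 in df1 (adjusted p = 0.0277), and it lost its call without df1 replicate 2 or 3 or gtl1df1 replicate 1 or 3. ycf4 read 3.52, 4.04 and 3.34 in gtl1df1, against 5.11, 5.38 and 4.93 in df1 (adjusted p = 0.00624). Other runs of neighbours were picked by hand too, and not every run was looked at. In those picked the calls varied, though all their differences were below 0, and so were 67 of the 69 plastid differences. In the pair psbK and psbI both were called, in rpl33, rps18 and rpl20 2 of 3 were called, and of the 7 members in the stretch from rps19 to rpoA 0 were called in any comparison, with a median of -0.83 in gtl1df1 against df1.

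Against gtl1, gtl1df1 differed little. limma called 0 of 23 mitochondrial members, with 3 at an unadjusted p under 0.05, and 1 of 69 plastid members lower, against 4.71% of all probe sets called, 2.44% lower and 2.26% higher. That member was petB, which encodes cytochrome b6 and read 8.12, 7.98 and 8.08 in gtl1df1, against 9.36, 8.95 and 8.50 in gtl1 (difference -0.88 ± 0.22, adjusted p = 0.0386). The arrays did not overlap, but the call was lost without gtl1 replicate 1 or 2 or any 1 gtl1df1 array, and in a fit of the 6 arrays alone. Without gtl1 replicate 3 the plastid count was 2.

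Whether gtl1df1 differed from df1 otherwise than gtl1 from WT was tested as an interaction. It is the difference of gtl1df1 from df1 minus that of gtl1 from WT, and was added after the data were seen. WT alone lies in the other BioB set, so that split and the interaction cannot be told apart. The calls can therefore not be given to the loss of GTL1. The interaction was negative and called for 7 of 23 mitochondrial and 13 of 69 plastid members and positive and called for 0, against 15.6% of all probe sets called, 6.74% negative and 8.88% positive. The interaction was -2.79 ± 0.34 for cox2 (adjusted p = 0.000368), -2.42 ± 0.27 for ccmB (adjusted p = 0.000198) and -2.69 ± 0.56 for cemA (adjusted p = 0.00582). For cox2 the mean was 8.78 in gtl1, 9.30 in df1, 7.88 in gtl1df1 and 7.41 in WT, so that both single mutants stood above the double mutant and WT. The counts were 4 mitochondrial members without WT replicate 2 or 3, gtl1 replicate 1, df1 replicate 2 or gtl1df1 replicate 1 or 2. They were 7 plastid members without WT replicate 2, gtl1 replicate 1 or df1 replicate 2, 8 without WT replicate 3 or gtl1df1 replicate 1, and 6 without gtl1df1 replicate 3.

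The last comparisons set gain against combined loss, across the BioB sets. In GTL1ox against gtl1df1 6 of 23 mitochondrial members were called lower and 0 higher, with a median of -0.32. Of the plastid members 5 of 69 (7.25%) were called higher and 0 lower, with a median of 0. Of all probe sets 29.3% were called, 11.6% lower and 17.7% higher. nad6 read 2.45, 2.33 and 2.51 in GTL1ox, against 5.27, 5.46 and 6.97 in gtl1df1 (at least 11.1-fold, adjusted p = 0.00121), and cox2 read 6.02, 6.31 and 6.67 in GTL1ox, against 7.78, 8.04 and 7.82 in gtl1df1 (difference -1.55 ± 0.24, adjusted p = 0.000227). The plastid members were psaJ, rpl33, psbK, atpF and psbA. The mitochondrial count was 3 without gtl1df1 replicate 1, and the plastid count was 2 without GTL1ox replicate 2 or gtl1df1 replicate 3 and 3 without GTL1ox replicate 3. rpl33 lost its call when replicate 2 or 3 of either genotype was left out.

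In DF1ox against gtl1df1 the plastid members were higher, with 24 of 69 called higher and 0 lower, and nad2 was the 1 mitochondrial member called, against 20.8% of all probe sets called, 10.3% higher and 10.5% lower. The plastid median was 0.63. Of the 24, ndhG, petD and rpoB were near the lowest value on all arrays, and psbC, rps16 and rps18 on every gtl1df1 array. rpoC1 read 5.85, 6.13 and 5.03 in DF1ox, against 3.26, 4.36 and 3.65 in gtl1df1 (difference 1.91 ± 0.32, adjusted p = 0.000822). rpl20 read 8.00, 8.48 and 7.77 in DF1ox, against 6.25, 6.46 and 6.41 in gtl1df1 (difference 1.71 ± 0.30, adjusted p = 0.000969). Neither gene overlapped. Also called were 6 of 15 ribosomal proteins, 5 of 15 photosystem II subunits, and matK, at 9.52, 9.72 and 8.97 in DF1ox, against 7.70, 7.94 and 7.76 in gtl1df1. nad2 lost its call without DF1ox replicate 2 or 3 or gtl1df1 replicate 2 or 3. A fit of the 6 arrays alone called 13 plastid and 0 mitochondrial members.

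**Figure D5:**
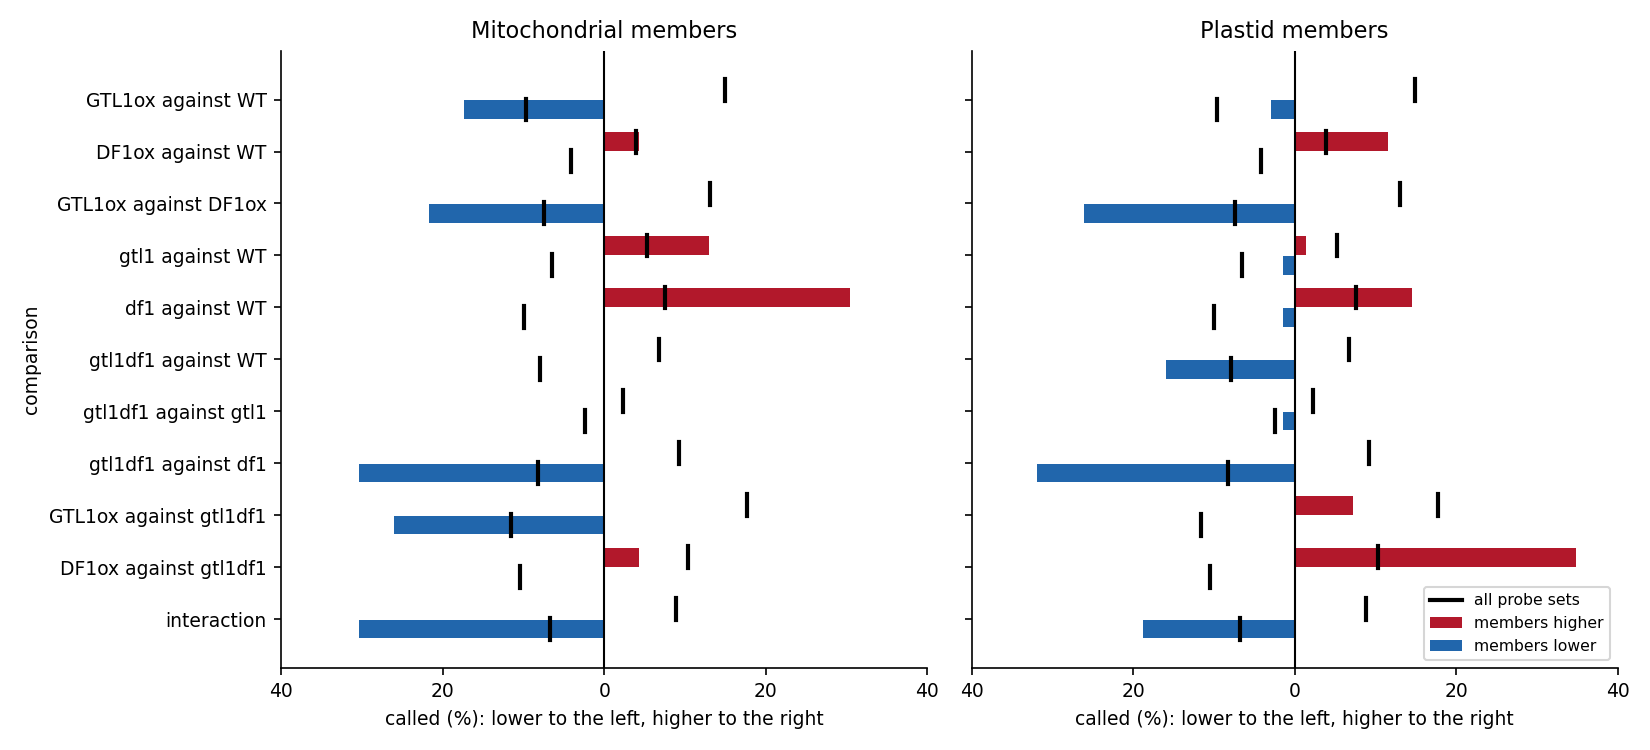
Share of members called in each comparison (%), lower to the left and higher to the right, with black marks at the share of all 22746 probe sets called in the same direction. Plastid bars pass the mark most clearly for gtl1df1 against df1 (22 of 69 lower, mark at 8.23%) and DF1ox against gtl1df1 (24 of 69 higher, mark at 10.3%).

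Of a list of 24 nuclear genes of respiration 7 probe sets were measured, among them those of cytochrome c (CYTC-1, CYTC-2) and the succinate dehydrogenase subunits SDH1-1, SDH2-1 and SDH2-2. In GTL1ox against WT 3 of them were called, all higher, with 0.39 for SDH2-2 (adjusted p = 0.000271), 0.33 for CYTC-1 and 0.18 for SDH1-1, where 4 mitochondrial members were called lower and 14.9% of all probe sets higher. In DF1ox against WT CYTC-1 was called higher (0.25), as was nad2. In df1 against WT SDH2-2 (-0.35) and SDH2-1 (-0.31) were called lower, where 7 mitochondrial members were called higher and 10% of all probe sets lower. In gtl1 against WT 4 of the 7 were called lower, against 6.54% of all probe sets, where 3 mitochondrial members were called higher. In gtl1df1 against WT 3 of the 7 were called lower, against 7.92%, where 0 mitochondrial members were called. In gtl1df1 against df1 0 of the 7 were called by limma, with 2 at an unadjusted p under 0.05. Of 5 listed root hair markers 2 were measured. EXPA18, another root hair expansin, was lower in GTL1ox than in WT by 1.45 on the log2 scale, while EXPA7 was not called there. Against WT, EXPA18 was also called lower in DF1ox (-0.27), df1 (-0.22) and gtl1df1 (-0.33), and EXPA7 in gtl1df1 (-0.23). EXPA7 was called lower in gtl1df1 than in df1 as well (-0.21).

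The several-gene probe sets left out of the members gave these counts. In gtl1df1 against df1 7 of 12 with a mitochondrial gene and 4 of 8 with plastid genes were called lower, against 8.23% of all probe sets. In df1 against WT 6 of 12 and 1 of 8 were called higher, against 7.54% of all probe sets, and in GTL1ox against WT 3 of 12 with a mitochondrial gene were called lower, against 9.65%. In gtl1df1 against WT 2 of 12 with a mitochondrial gene were called lower, where 0 of 23 members were, against 7.92% of all probe sets. Of the 12, 11 also match a nuclear gene, so their signal cannot be given to the mitochondrial genome alone.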

How the data were processed

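Total RNA of sorted root hair cells was hybridised to 18 ATH1 arrays. The deposited values are log2 levels that the authors made with gcRMA (GCRMA in the submitters' processing notes), 1 value per probe set and array, and its version is not given in the sources used here. Values near the bottom of the scale are compressed, and gcRMA gives some probe sets, dim ones and others, the same value on several arrays. For 3 mitochondrial and 3 plastid members a value over 1 log2 unit above the lowest recurred, to 2 decimals, on 4 or more arrays. The mitochondrial ones were nad4 (9.71 on 4 arrays), nad7 (4.77 on 6 arrays) and ccmFN2 (4.02 on 8 arrays). The plastid ones were rps15 (5.93 on 6 arrays, some of them of WT), psbA (3.78 on 6 arrays) and atpF (4.88 on 6 arrays). Calls of nad7, rps15, psbA and atpF therefore rest in part on such repeated values. The labels name two-cycle labelling for some arrays without naming them. Were labelling primed on poly(A) tails, organelle RNA, which is mostly untailed, would be recorded in part only, and the sources used here do not give the priming. The number of arrays limits the precision.

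Control probe sets were left out and no filter was set on dim values. Plastid genes were matched to the RefSeq gene table of TAIR10.1 by gene ID and mitochondrial genes by symbol or synonym. The linear model of limma 3.58.1 (R 4.3.3) had a mean for each genotype and used all 18 arrays; moderated tests were two-sided, p-values were adjusted over 22746 probe sets by Benjamini-Hochberg, and those with an adjusted value under 0.05 count as called. The fit was tested on simulated data. The members and the gene lists were chosen with earlier results of these data known. Genes were named by a rule: those with the highest level, those with the widest range over genotypes, and the largest called differences in each direction of a comparison. Others named were chosen after their values were seen.

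Same-number arrays of df1 and gtl1df1 deviated together from their group means (correlations over probe sets of 0.101, 0.208 and 0.279), so the numbers were taken to pair these arrays. Other genotypes were positive for each number too, such as GTL1ox with gtl1 (0.115, 0.121 and 0.187), and were not paired. WT with df1 gave -0.375, -0.020 and -0.007. The pairing is therefore an assumption. The study's methods give biological replicates, without saying what a number marks. Alternatives were quantile normalization, only the arrays compared, only brighter probe sets, the replicate number as a block, and leaving out each array. The interaction and the pair-wise fit with the block were added after the data were seen.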

Additional observations from a re-analysis of the deposited data

Results flagged for a closer look

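The difference of gtl1df1 from df1 and that of gtl1 from WT were not the same for 20 members (limma interaction, adjusted p under 0.05, all negative). For the mitochondrial members the interaction on the log2 scale was -2.79 for cox2, -2.42 for ccmB, -2.42 for nad2, -1.52 for matR, -1.37 for nad5 (257338_s_at), -1.20 for nad1 (257321_at) and -1.13 for ccmFN1. For the plastid members it was -2.69 for cemA, -2.25 for accD, -1.99 for psbH, -1.91 for petA, -1.68 for rpl20, -1.66 for ycf4, -1.53 for psbL, -1.51 for petB, -1.32 for ndhA, -1.29 for atpB, -1.17 for psbF, -0.86 for ndhE and -0.55 for atpI. Of these, atpI was near the lowest value (2.22) on all 18 arrays, at 2.30 to 2.83, so that no level above it was measured. ndhE was near it in gtl1, gtl1df1 and WT, matR and nad5 (257338_s_at) in gtl1df1 and WT, and nad2 in WT, so these values compare against the bottom of the scale. By the spiked-in control BioB (7.82 in gtl1, 8.26 in df1, 7.47 in gtl1df1 and 2.69 in WT) the WT arrays stand apart from the mutants, and this split and the interaction cannot be told apart. The call of accD was lost without WT replicate 2 or 3, gtl1 replicate 1 or 2, df1 replicate 2 or 3, or gtl1df1 replicate 1 or 3.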

How the results depend on the processing

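No member named by the rule for a comparison reversed its direction under any alternative. In comparisons of a pair of genotypes these members were chosen for arrays that did not overlap. Leaving out an array could therefore not reverse them, so this says little about their stability. Members named only by level or range were not checked in this way. A fit of only the arrays compared has fewer residual degrees of freedom, and it called 1 mitochondrial and 1 plastid member for GTL1ox against WT, 0 and 0 for DF1ox against WT, 6 plastid members for GTL1ox against DF1ox, 0 and 0 for gtl1 against WT, 1 and 1 for df1 against WT, 1 plastid member for gtl1df1 against WT, 0 plastid members for gtl1df1 against gtl1, 3 mitochondrial members for gtl1df1 against df1, 0 and 13 for DF1ox against gtl1df1, and 4 and 8 for the interaction. Over these fits 16 calls of named genes were kept and 21 lost. Quantile normalization called 1 plastid member for GTL1ox against WT, 8 mitochondrial members for GTL1ox against DF1ox, 1 mitochondrial member for gtl1df1 against gtl1 and 2 plastid members for GTL1ox against gtl1df1, and lost 2 named calls, ndhD for GTL1ox against WT and rpl33 for GTL1ox against gtl1df1. With brighter probe sets only, where fewer were tested, the counts were 2 mitochondrial and 5 plastid for DF1ox against WT, 9 mitochondrial for GTL1ox against DF1ox, 6 plastid for gtl1 against WT, 1 mitochondrial for gtl1df1 against WT, 2 and 4 for gtl1df1 against gtl1, and 34 plastid for gtl1df1 against df1. Otherwise the cause was not tested.

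With the replicate number as a block over all arrays, gtl1df1 against WT had 1 mitochondrial call, ndhD lost its call for GTL1ox against WT, and the block changed no other named call and moved no other count of calls by over 1.5 times. For gtl1df1 against df1 with the block, the 6 arrays alone gave 3 mitochondrial and 8 plastid calls.

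Leaving out each array in turn gave, for mitochondrial and then plastid members, 3 to 5 and 0 to 1 in GTL1ox against WT, 1 to 2 and 2 to 9 in DF1ox against WT, 4 to 7 and 9 to 18 in GTL1ox against DF1ox, 2 to 3 and 0 to 4 in gtl1 against WT, 4 to 10 and 1 to 14 in df1 against WT, 0 to 1 and 3 to 11 in gtl1df1 against WT, 0 to 0 and 0 to 2 in gtl1df1 against gtl1, 4 to 9 and 10 to 26 in gtl1df1 against df1, 3 to 5 and 2 to 5 in GTL1ox against gtl1df1, 0 to 1 and 16 to 23 in DF1ox against gtl1df1, and 4 to 10 and 6 to 17 in the interaction. Of the named genes' calls, 191 were kept and 55 lost over these fits.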

Other observations

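The cytosolic 25S ribosomal RNA probe set was at 13.87 in GTL1ox, 13.73 in DF1ox, 14.19 in gtl1, 14.32 in df1, 14.17 in gtl1df1 and 13.80 in WT (log2 means of 3 arrays), a smaller spread over genotypes than that of the 5S probe set. The 7 probe sets of nad1 did not read alike, since 257321_at and 257323_at lay above the lowest value in every genotype while the other 5 were near it on all arrays.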
